A study of Mus musculus with 4 samples.

Results

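Lin28a, Lin28b, Igf2bp1, Igf2bp2, Igf2bp3 and Hmga2 are genes of the fetal growth programme, and the values below describe H3K27me3 over their 6 loci in fetal and adult mouse blood progenitors. The members were the peaks of each deposited list that overlapped a fixed window around each gene on build mm9. These were 36 of the 20024 peaks of the bone marrow list and 16 of the 31847 peaks of the fetal liver list. The loci were selected on the peak coverage of these same lists, since 2 of the windows hold wide regions already known to be marked in bone marrow alone. Coverage, peak number, width and score in the 2 lists are therefore a description of the members and no test of them.

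The series holds 4 samples, an immunoprecipitation and an input from each of 2 cell populations, with 1 sample of each kind. The adult population was lineage-negative cells (cells without surface markers of mature blood) flushed from long bones of C57BL/6 mice aged 8 weeks. The fetal population was lineage-negative cells from fetal livers at embryonic day 14.5, labelled C57BL/6. Both were stimulated overnight with IL-3, IL-6, FLT3 ligand and SCF, transduced with a lentivirus encoding NOTCH1ΔE (N1dE, a truncated form of the Notch receptor), cultured for 3 days and sorted for GFP. Every sample thus carried N1dE and had been grown in culture, and no untransduced cells were compared here. The comparison describes where H3K27me3 peaks of N1dE-transduced progenitors differ between fetal liver and adult bone marrow. Developmental stage cannot be told apart here from tissue of origin, or from differences between the 2 preparations. The mark is no measure of RNA, so the sorted cell type could not be checked by its marker genes, and expression of the 6 genes was not analysed here.

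H3K27me3 is deposited by Polycomb repressive complex 2 and lies in broad domains over silenced developmental genes, often those with CpG-rich promoters. LIN28A and LIN28B are RNA-binding proteins that block maturation of let-7 microRNAs, and they are abundant in embryonic and fetal cells. Let-7 in turn restrains the IGF2BP family, which binds and stabilises messenger RNAs, and HMGA2, an architectural chromatin protein that supports self-renewal of fetal stem cells. In blood formation this axis is active in the fetus and declines as haematopoiesis becomes adult.

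The promoters of the members are shown because CpG-rich promoters are known places of Polycomb activity. RefSeq sequences on build GRCm38.p6 were matched by symbol for 5 of the 6 genes, Igf2bp1 being the other, and all 5 lie on the minus strand. The following 2 sequences are the 250 bases before the start site, 5′ to 3′, with each CG dinucleotide, which reads the same on both strands, in capitals. They come from Igf2bp2 on chromosome 16, the most CpG-rich of the 5, and Hmga2 on chromosome 10.
Igf2bp2: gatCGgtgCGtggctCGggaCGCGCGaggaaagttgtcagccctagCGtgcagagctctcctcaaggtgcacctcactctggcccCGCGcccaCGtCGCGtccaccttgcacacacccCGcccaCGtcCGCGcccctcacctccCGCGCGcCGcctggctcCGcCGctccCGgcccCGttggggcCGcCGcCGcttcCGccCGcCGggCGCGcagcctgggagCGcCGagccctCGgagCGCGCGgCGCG
Hmga2: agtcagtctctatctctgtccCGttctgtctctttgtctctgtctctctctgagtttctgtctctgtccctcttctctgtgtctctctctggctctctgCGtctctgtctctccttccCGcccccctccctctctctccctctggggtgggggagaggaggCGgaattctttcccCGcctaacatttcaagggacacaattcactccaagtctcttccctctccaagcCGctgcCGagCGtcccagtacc
The Igf2bp2 sequence held 40 CG dinucleotides at an observed to expected ratio of 1.11, and only 1.31% of the 32851 promoters of the table held as many. Igf2bp3 held 21 (ratio 1.002), a number reached by 16.3% of promoters. Hmga2 held 8 (ratio 0.45), Lin28a 7 (0.34) and Lin28b 6 (0.63), against a median of 6 over the table. By CG number in these 250 bases, the 5 promoters thus ranged from among the most CpG-dense to the middle of the table. The median ratio over the table was 0.37, and only Lin28a of the 5 was below it. Bases after the start site were not counted. Their positions are on another build than the peaks, so no promoter was placed on a peak.

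All 6 loci were covered over more bases by bone marrow than by fetal liver peaks. Genome tiles of the same width as a window were used as a background, counting those that held a peak of either list and touched none of the 6 windows. Bone marrow covered more bases than fetal liver in 25.6% of 60 kb tiles, 25.1% of 120 kb tiles, 24.7% of 170 kb tiles, 24.4% of 180 kb tiles and 24.2% of 190 kb tiles. Since the windows were chosen with this contrast in view, nothing is read from 6 of 6 against these shares. Summed over the loci, bone marrow peaks held 111.0 kb and those of fetal liver held 22.05 kb, a difference of 89.0 kb and a ratio of 5.04. The whole lists ran the other way, where bone marrow covered 40.4 Mb and fetal liver 60.8 Mb, a ratio of 0.664. The members made up 0.275% of all bases covered in bone marrow and 0.0363% of those covered in fetal liver. Igf2bp1 alone held 39.8% of the bone marrow length, and without it the difference was 47.6 kb. Where peaks of a single list were kept apart from shared bases, 93.7 kb lay in bone marrow peaks alone, 17.3 kb in both and 4.74 kb in fetal liver peaks alone. Of the fetal liver bases at these loci, 78.5% lay inside bone marrow peaks. Conversely, 15.6% of the bone marrow bases lay inside fetal liver peaks. There was 1 peak list per cell type and no replicate, so no difference here can be set against an error between animals or cultures, and no p-value is given. The read depth behind each list is unknown, and a deeper library can give more and wider peaks.

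**Figure D1:**
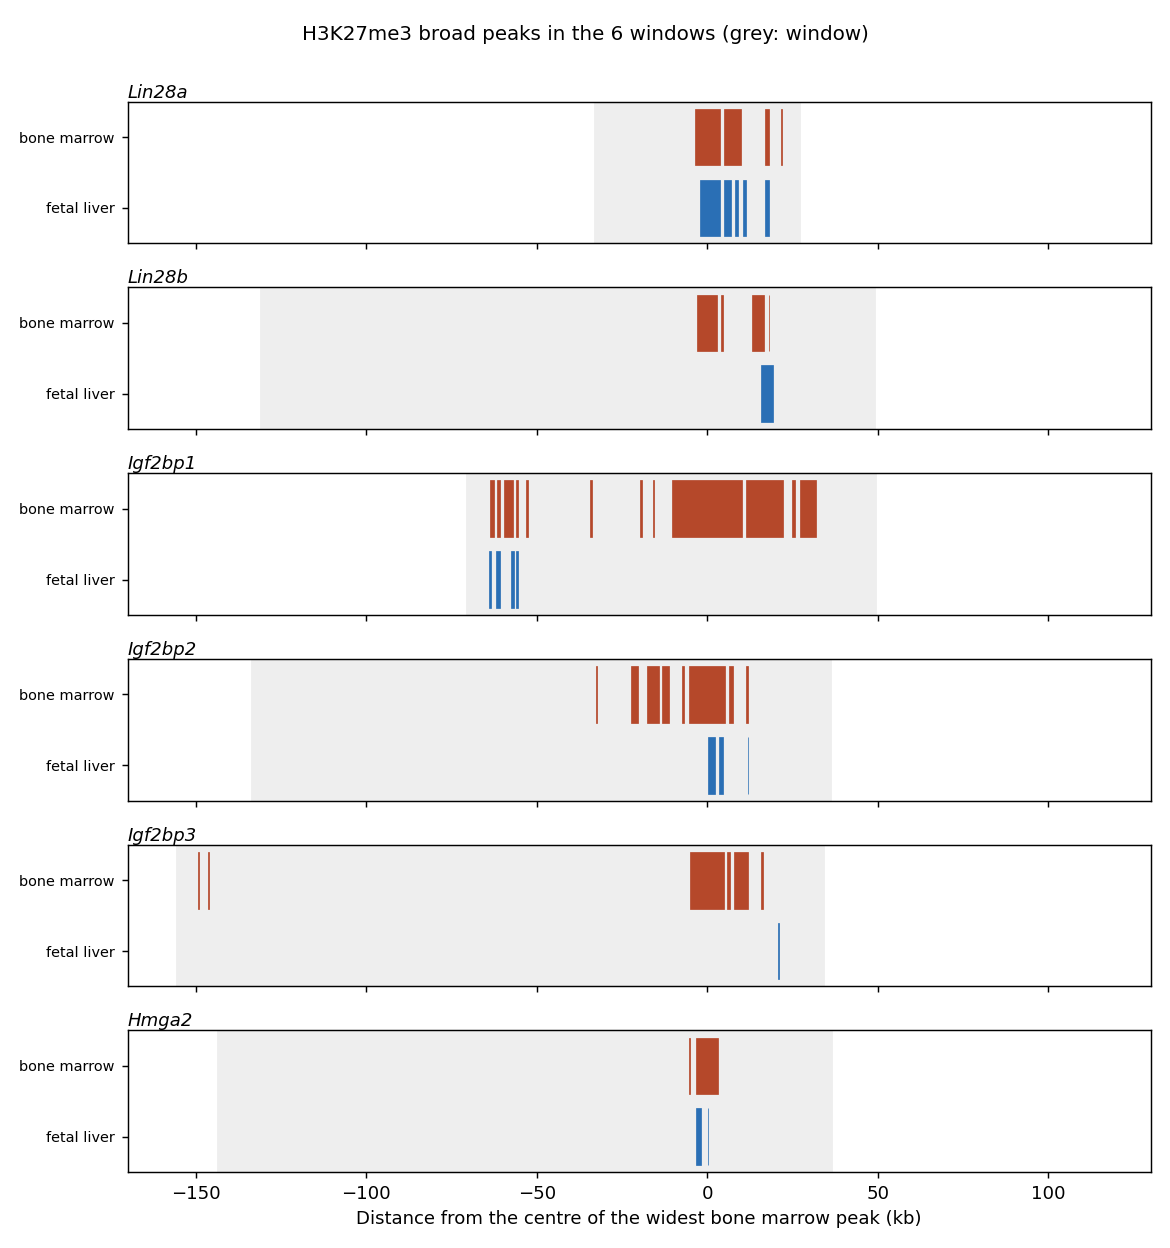
Broad H3K27me3 peaks of bone marrow (red, upper row) and fetal liver (blue, lower row) in the 6 windows (grey), by distance in kb from the centre of the widest bone marrow peak. The widest bone marrow peaks at Igf2bp1 have no blue peak below them, whereas most peaks at Lin28a overlap a peak of the other row.

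Lin28a, the embryonic LIN28 paralog, was the locus where the populations were most alike. In its 60 kb window (chr4:133540001-133600000) bone marrow had 4 peaks over 13.5 kb and fetal liver 5 peaks over 10.7 kb, or 22.6% and 17.8% of the window. The difference was 2.87 kb, and 9.69 kb lay in peaks of both lists. Fetal liver peaks held 71.5% of the bone marrow bases, but the division into peaks differed. The bone marrow peak of 4724 bp overlapped fetal liver peaks of 1910 and 668 bp with a gap between them. The widest peak of the window was chr4:133569321-133576549 in bone marrow (7229 bp, fold enrichment over input 2.00, −log10 q 1.16). In fetal liver it was chr4:133570687-133576611 (5925 bp, 2.13-fold, −log10 q 1.47). Fold enrichment and −log10 q are the values of the authors' peak caller and rank peaks only within a list. Fetal liver peaks overlapped 3 of the 4 bone marrow peaks, the exception being a 270 bp peak 3.41 kb from its nearest fetal liver neighbour. In the same way 4 of the 5 fetal liver peaks overlapped a bone marrow peak.

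Lin28b, the paralog best known for imposing fetal character on blood progenitors, had fewer covered bases than Lin28a in both populations. Its 180 kb window (chr10:45060001-45240000) held 4 bone marrow peaks over 10.4 kb and a single fetal liver peak of 3625 bp, or 5.77% and 2.01% of the window. The fetal liver peak, chr10:45206487-45210111 (fold 2.05, −log10 q 1.06), lay at the higher-coordinate end of the marked stretch. There it shared 1069 bp with the bone marrow peaks. The widest bone marrow peak, chr10:45187761-45193785 (6025 bp, 2.07-fold, −log10 q 1.23), was 12.7 kb from the nearest fetal liver peak. The 2 lists thus met only at the edge of the domain, and 29.5% of the fetal liver bases were common to both. The highest −log10 q at Lin28b was 1.30, and the bone marrow peaks ranked at the 5.37th to 45.9th percentile of their list.

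Igf2bp1, an RNA-binding protein of fetal tissues and a let-7 target, showed the greatest difference in covered length of the 6 loci. Its 120 kb window (chr11:95790001-95910000) held 12 bone marrow peaks over 44.2 kb and 4 fetal liver peaks over 2.83 kb, or 36.8% and 2.36% of the window. The window fell into 2 zones. In the lower-coordinate zone, between 95796645 and 95804937, 4 bone marrow and 4 fetal liver peaks overlapped each other, and every fetal liver peak of the window was here. From 95807438 on there were 8 bone marrow peaks and no fetal liver peak. The 2 widest were chr11:95850268-95870866 (20.6 kb, 2.27-fold, −log10 q 1.97) and chr11:95871816-95882746 (10.9 kb, 2.69-fold, −log10 q 2.53). Only 85 and 365 peaks of the bone marrow list were wider. These 2 peaks lay 45.3 and 63.9 kb from the nearest fetal liver peak, and the latter was the largest such distance among all member peaks. The 4 bone marrow peaks closest to the shared zone were short, at 319 to 802 bp. They had folds of 1.17 to 1.89, and their −log10 q lay within the lowest 20.3% of the list. On the gene order of GRCm38 the neighbours of Igf2bp1 are B4galnt2 and Gip, and which gene each zone covers was not analysed here.

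Igf2bp2, the family member with the widest expression in adult tissues, held the highest-scoring peak of the 6 loci. Its 170 kb window (chr16:22030001-22200000) held 8 bone marrow peaks over 20.1 kb and 3 fetal liver peaks over 3185 bp, or 11.8% and 1.87% of the window. The bone marrow peak chr16:22169983-22171042 was enriched 5.37-fold over 1060 bp, at a −log10 q of 8.07, and only 22 peaks of its list had a higher −log10 q. No fetal liver peak overlapped it, the nearest lying 1.85 kb away. The next in score, chr16:22175054-22175595 (542 bp, 3.39-fold, −log10 q 4.78), overlapped a fetal liver peak of 217 bp with a −log10 q of 0.63. The widest, chr16:22158316-22168844 (10.5 kb, 2.69-fold, −log10 q 2.86), contained both other fetal liver peaks whole. Fetal liver peaks here were therefore nested in the bone marrow domain, with 99.3% of their bases in it. Another 5 bone marrow peaks, of 230 to 3385 bp, extended the domain toward lower coordinates, 7.22 to 32.7 kb from the nearest fetal liver peak.

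Igf2bp3, an oncofetal member of the family, was nearly free of fetal liver peaks. Its 190 kb window (chr6:49010001-49200000) held 6 bone marrow peaks over 16.1 kb, or 8.45% of the window. The only fetal liver peak, chr6:49186402-49186614 (213 bp, 1.91-fold, −log10 q 0.89), covered 0.112% of it and overlapped no bone marrow peak. It was among the shortest 3.13% of its list. The bone marrow domain was made of chr6:49160667-49170554 (9888 bp, 2.098-fold, −log10 q 1.35), chr6:49171398-49172327 (930 bp, 2.61-fold, −log10 q 1.65) and chr6:49173471-49177491 (4021 bp, 2.74-fold, −log10 q 3.01). A weak peak of 524 bp (−log10 q 0.56) followed it and was 4.38 kb from the fetal liver peak. A further 2 short peaks of 323 and 370 bp stood near the other end of the window. This was the one locus of the 6 where the lists had no base in common.

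Hmga2 had the least covered bone marrow window of the 6 loci. Its 180 kb window (chr10:119770001-119950000) held 2 peaks in each list, covering 6.75 kb for bone marrow against 1.51 kb for fetal liver, or 3.75% and 0.841% of the window. Both fetal liver peaks, of 1303 and 211 bp, lay inside the bone marrow peak chr10:119910166-119916695 (6530 bp, 2.30-fold, −log10 q 1.67). Their −log10 q values were 0.87 and 0.79. The other bone marrow peak, chr10:119908093-119908311, was 219 bp long (3.01-fold, −log10 q 2.09). The fetal liver peaks were thus nested in the bone marrow domain, and 22.4% of the bone marrow bases were common to both. Beyond position 119913728 the window held peak bases of bone marrow alone.

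**Figure D2:**
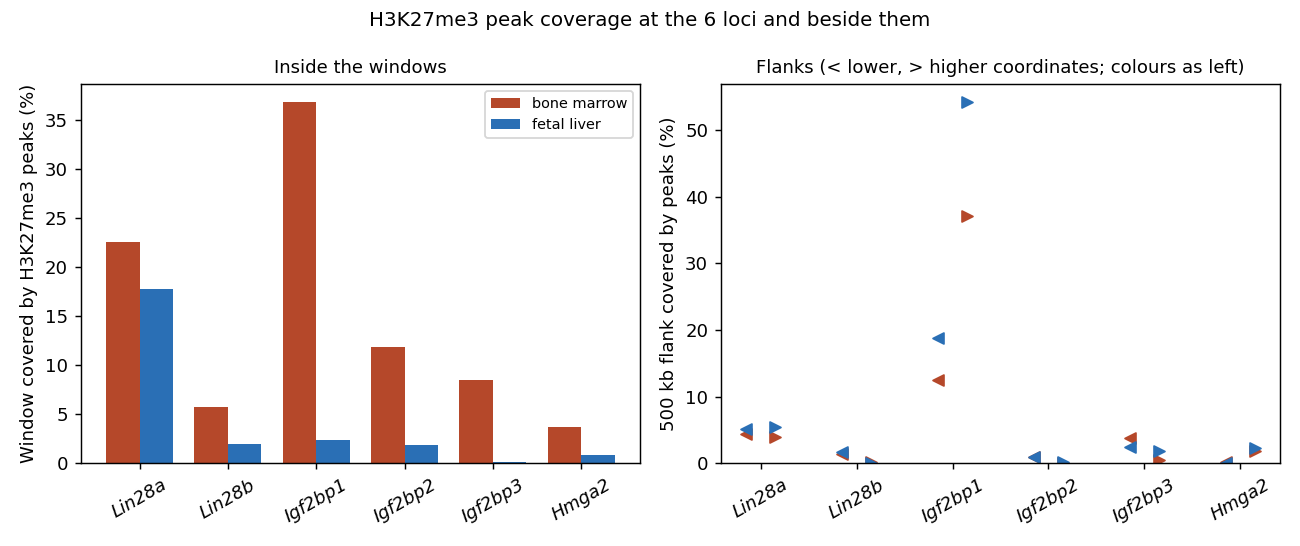
Left, share of each window covered by H3K27me3 peaks (%) in bone marrow (red) and fetal liver (blue), 1 list each, so no error bars; right, the share of the 500 kb on the lower (<) and higher (>) coordinate side of each window. The red bar is the taller in every window, from 3.75% at Hmga2 to 36.8% at Igf2bp1, while blue lies above red in 9 of the 12 flanks.

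The order of the loci differed between the populations. By share of the window covered, bone marrow ran Igf2bp1, Lin28a, Igf2bp2, Igf2bp3, Lin28b and Hmga2. Fetal liver ran Lin28a, Igf2bp1, Lin28b, Igf2bp2, Hmga2 and Igf2bp3, with only Lin28a above 2.36%. The ratio of covered length, bone marrow over fetal liver, was 1.27 at Lin28a, 2.87 at Lin28b, 4.46 at Hmga2, 6.31 at Igf2bp2, 15.6 at Igf2bp1 and 75.4 at Igf2bp3. The value at Igf2bp3 rests on a single fetal liver peak of 213 bp, and the order of the ratios depends on the window edges. In windows widened by 50 kb the ratio was 1.18 at Lin28a, 1.52 at Lin28b, 3.42 at Igf2bp1, 4.66 at Igf2bp2, 10.5 at Igf2bp3 and 5.40 at Hmga2. The widest peak was wider in bone marrow at all 6 loci. Peak number was higher in bone marrow at 4 loci, equal at Hmga2 and lower at Lin28a. Of the 36 bone marrow peaks, 24 overlapped no fetal liver peak, where 32.0% of the whole list had no overlap. Of the 16 fetal liver peaks, 2 overlapped no bone marrow peak, against 60.2% of that list. These shares come from the contrast that the choice of loci used and are given as description.

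In most flanks of the loci, fetal liver covered more bases than bone marrow. In the 500 kb on either side of each window, bone marrow covered more bases in 3 of 12 flanks, or 25.0%. The share was 24.2 to 25.6% in genome tiles of the window widths, which are shorter than the flanks and all hold a peak. Over all flanks the sums were 334.5 kb for bone marrow and 467.3 kb for fetal liver, a ratio of 0.716 beside 0.664 for the whole lists. Beside Igf2bp1, bone marrow and fetal liver covered 62.2 and 94.1 kb on the lower side and 185.7 and 271.2 kb on the higher side. That higher flank held most of both sums, so the ratio over all flanks rests largely on it. Coverage ranged from 0 to 37.1% of a flank in bone marrow and from 0 to 54.2% in fetal liver. Beside Igf2bp2, both flanks were nearly free of peaks, at 4.74 and 0 kb for bone marrow against 5.04 and 1.11 kb for fetal liver. The flanks where bone marrow led were the lower side of Igf2bp3 (18.96 and 11.98 kb), the lower side of Hmga2 (0.955 and 0.20 kb) and the higher side of Lin28b (0.69 and 0 kb).

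**Figure D3:**
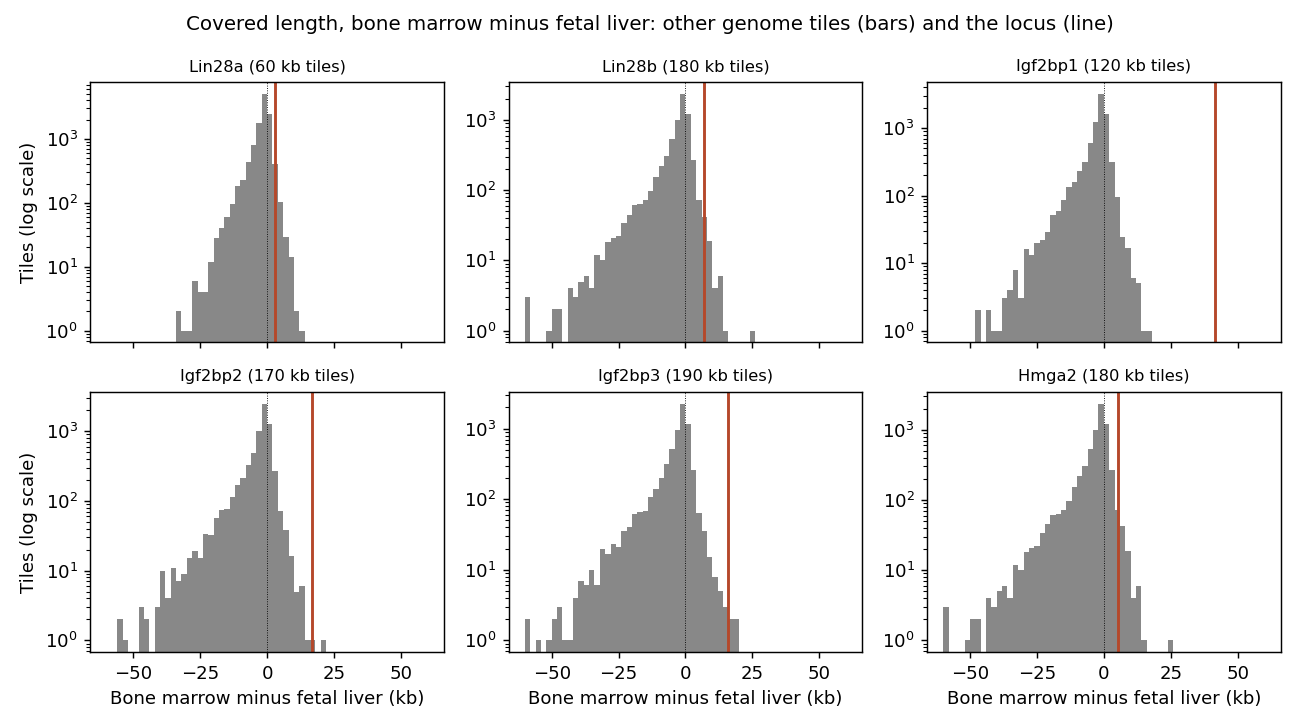
Number of genome tiles (log scale) by covered length in bone marrow minus fetal liver (kb), for tiles as wide as each window, with the value of the locus as a red line; tiles touching the 6 windows are left out and values beyond −60 kb are drawn in the outermost bar. The line for Igf2bp1, at 41.3 kb, lies beyond every 120 kb tile, the highest of which was at 17.0 kb.

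The differences at the loci are set beside those of the tiles as a description only, since the loci were selected on this contrast and their windows were drawn around the genes with it known. The counts below are no measure of chance. The median tile was covered more in fetal liver at every width, by 0.87 kb for 60 kb tiles and by 1.30 kb for 190 kb tiles. At Igf2bp1 the difference of 41.3 kb was reached by 0 of 8280 tiles of 120 kb. At Igf2bp2, 16.9 kb was reached by 2 of 6843 tiles of 170 kb, and at Igf2bp3, 15.8 kb was reached by 5 of 6418 tiles of 190 kb. At Lin28b, 6.77 kb was reached by 56 of 6633 tiles of 180 kb, and at Hmga2, 5.24 kb by 89 of the same tiles. At Lin28a, 2.87 kb was reached by 298 of 11675 tiles of 60 kb. Most tiles with as much bone marrow coverage as a locus were not covered more in bone marrow. Of the 55 tiles of 120 kb with at least the bone marrow coverage of Igf2bp1, 9 were covered more in bone marrow than in fetal liver. For Igf2bp2 and Igf2bp3 these numbers were 68 of 459 and 109 of 673, and for Lin28a, Lin28b and Hmga2 they were 124 of 627, 206 of 1151 and 400 of 1799. Fetal liver coverage as low as at the locus was found in 0 of these tiles for each IGF2BP gene, in 11 for Lin28a and in 10 each for Lin28b and Hmga2.

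**Figure D4:**
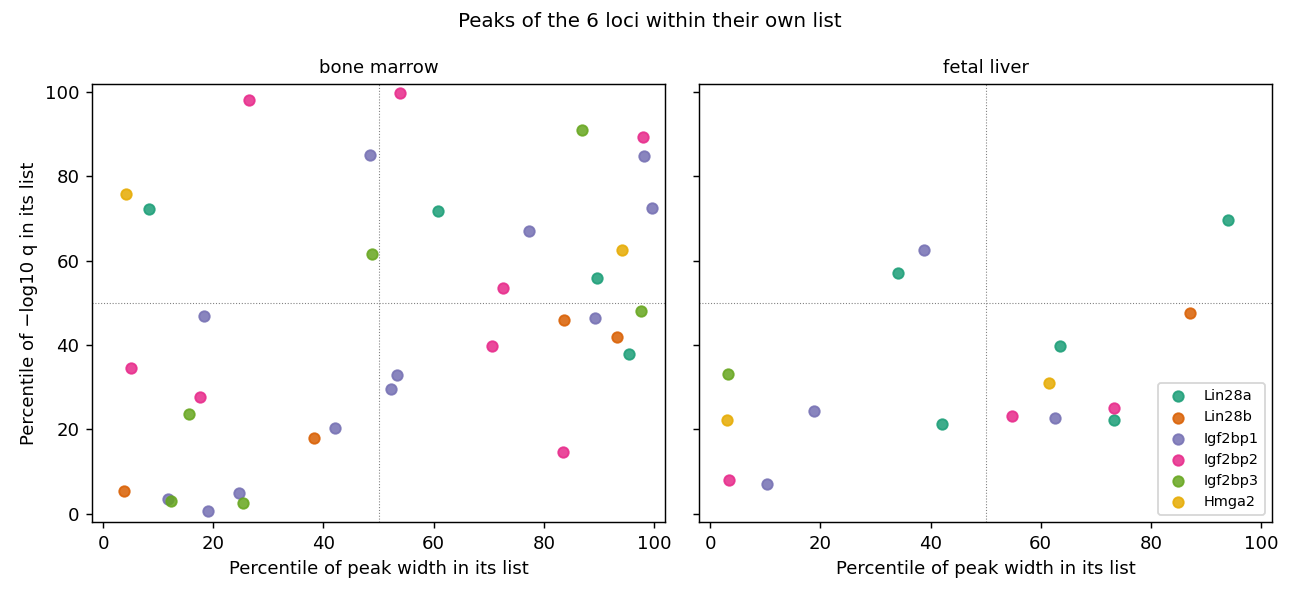
Each peak of the 6 loci by the percentile of its width (x) and of its −log10 q (y) among all peaks of its own list, bone marrow left and fetal liver right, coloured by locus, with dotted lines at the median. Bone marrow peaks spread over the whole range, and 3 of the 16 fetal liver peaks lie above the median −log10 q.

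Within the bone marrow list the member peaks were wide at the top of each locus but not high in score as a group. Of the 36 peaks, 7 reached 5 kb, against 9.54% of the list, while the median width was 1026 bp against 957 bp. Their median fold enrichment was 2.08 against 2.12 for the list, and their median −log10 q was 1.30 against 1.38. A −log10 q of at least 2 was reached by 7 of the 36, against 26.5% of the list. These 7 were 3 peaks at Igf2bp2, 2 at Igf2bp1 and 1 each at Igf2bp3 and Hmga2. The 16 fetal liver peaks mostly ranked below the median of their own list in −log10 q and fold, but were near it in width. Above the list median were 3 of them in −log10 q and 4 in fold. Their median fold was 1.89 against 1.93, and their median width was 931 bp against 945 bp. Only 1 of them, at Lin28a, reached 5 kb, against 8.02% of the list. Their median −log10 q was 0.81 against 1.09, and none reached a −log10 q of 2, which 15.2% of the list did. The medians of both member groups and of both lists were below 2. The coverage, overlap and nesting given above thus rest largely on low-scoring calls, most of all in fetal liver. Above that score the bone marrow peaks still covered 28.2 kb over 4 loci, fetal liver peaks covered nothing, and neither LIN28 gene kept a peak. This cut kept a larger share of the bone marrow list than of the fetal liver list, so it does not match the lists.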

How the data were processed

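H3K27me3 was mapped by native chromatin immunoprecipitation of micrococcal nuclease-digested chromatin, per the labels' protocols. The submitters' processing notes name BWA 0.5.7, MACS2 2.1.0, Picard and build mm9, but neither settings nor read numbers. By the peak names in the deposited lists, merged libraries were called against input, how many being not given in the sources used here. The authors' deposited lists give, per broad peak, a fold enrichment ratio of immunoprecipitation over input, −log10 p and −log10 q, and a score that was not used here. The inputs were not analysed on their own.

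Coordinates are given from 1. Peaks overlapping each window by 1 bp were taken, none crossed a window edge, and covered bases, common bases and distances came from Python 3.11.15 code using pandas 2.3.3 and numpy 2.4.6. The code was tested on simulated data against bedtools 2.31.1, with 0 of 6956 tiles and 0 of 6000 distances differing. Tiles ran from each chromosome's start to its last peak on chromosomes 1 to 19 and X. Figures were drawn with matplotlib 3.10.9. The named genes were all 6 members, and all their peaks are accounted for. A planned list of other let-7 pathway and fetal progenitor genes could not be placed, since the gene table used was on GRCm38.p6 and not mm9, and is not analysed here. The members, windows and comparisons were chosen with earlier results of these data known. Alternatives covered score, fold, width, list length, window edges and tile definition.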

Additional observations from a re-analysis of the deposited data

How the results depend on the processing

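No paired analysis was possible because each population has a single list. Of 48 alternative values of the difference at a single locus, 42 stayed higher in bone marrow, 6 became 0 because no peak of either list was left, and none turned around. Some of these values could not turn around. Counting whole peaks returned the main values, since no peak crossed a window edge. Reducing the fetal liver list removes peaks from that list alone, so the difference could only stay or grow. Bone marrow covered more at 4 of 6 loci at a −log10 q of at least 2, at 2 when a 3-fold enrichment was required, and at 6 under the other alternatives. Scores rank peaks only within a list, so the score and fold cuts are not matched between the lists. A −log10 q of at least 2 kept 26.5% of the bone marrow list and 15.2% of the fetal liver list. The summed difference fell to 28.2 kb and 1.82 kb under those 2 cuts, which leave few peaks, and was 47.6 kb without the Igf2bp1 locus, an alternative added after seeing the data. It was 98.2 kb and 100.1 kb when only the best fetal liver peaks were kept, to match the number or the covered length of those of bone marrow. In the deposited lists 0 loci held a bone marrow peak and no fetal liver peak. This number was 4 at a −log10 q of at least 2, 2 at a fold of at least 3, 3 under either reduction of the fetal liver list, 1 for peaks of at least 1 kb and 2 for windows narrowed by 20 kb. The share of genome tiles in this state was not computed, nor was any tile share under the score, fold, width or list-length cuts. These counts therefore have no background beside them, and nothing is read from them. At Lin28a the difference of 2.87 kb was 1.41 kb in the narrowed window, and 5.57 and 6.96 kb with the reduced lists. Counting all tiles, also those without a peak, bone marrow led in 6.79% of 60 kb, 9.46% of 120 kb, 10.9% of 170 kb, 11.05% of 180 kb and 11.2% of 190 kb tiles. Asking for at least 2 times the bases, the shares were 13.3%, 12.0%, 11.2%, 11.2% and 11.2%. Flanks of 1 Mb, added later, left bone marrow ahead in 2 of 12. Unknown read depth limits every comparison of covered length.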
